A study of Mus musculus with 4 samples.

Results

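This section describes 10 genes of MHC class I antigen presentation (H2-K1, H2-D1, B2m, Tap1, Tap2, Tapbp, Nlrc5, Psmb8, Psmb9 and Erap1) in mouse mammary tumours. They were chosen by name and matched by Ensembl identifier to the GENCODE M21 annotation of build GRCm38, which found all 10 among the 51826 genes of the count table. The tumours carried the C3-T transgene in both genotypes, and were either Elf5+/+ (WT, 2 libraries) or Elf5+/- (HET, 2 libraries). Elf5 is an ETS-family regulator of mammary alveolar development, and the comparison asks which transcripts differ when a single intact copy remains. Tumours were digested with collagenase and hyaluronidase and sorted with antibodies to CD45, CD31 and TER119 to enrich tumour cells. Which promoter drives the transgene, how Elf5 was deleted, the strain and the age are not stated in the sources used here. Both HET titles carry the number 3211, so the 2 HET libraries may be tumours of 1 animal, which the labels do not settle, and every p-value below reflects the spread of these 4 libraries, which may be technical.

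MHC class I molecules show peptides from inside the cell to CD8 T cells. A heavy chain (H2-K1, H2-D1) pairs with beta 2 microglobulin (B2m), and the complex waits in the endoplasmic reticulum for a peptide that the proteasome has cut, the TAP transporter has imported and the aminopeptidase ERAP1 has trimmed. Interferon gamma is known to raise the whole set, through IRF1 and through NLRC5, a transactivator that binds class I promoters, and in many tumours the set is turned down.

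The libraries held 12695132 to 15307939 estimated counts. The library labelled WT 2 stood apart: 44.5% of genes had no count there, against 29.9% to 31.3% in the others. Levels are given as CPM, counts relative to library size after scaling by the trimmed mean of M values (TMM). Elf5 itself was at 35.6 CPM (WT 1), 4.70 (library labelled WT 2), 5.39 (HET 1) and 10.6 (HET 2). Its RNA was therefore lower in that library than in either HET library, and the label is given as deposited. Where 4 values stand without names, they follow the order WT 1, library labelled WT 2, HET 1, HET 2. Epithelial markers were present in all libraries, with 11 of 11 above 3 counts in each and summed levels of 4301, 4054, 3229 and 2606 CPM.

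Promoters of the members are shown first because class I genes are known for shared control elements next to their start sites. RefSeq promoter windows (GRCm38.p6, 250 bases before to 50 bases after the start site) were found for 8 of the 10 genes, in 9 windows (2 for H2-K1, of which 1 is printed); Tap2 and Nlrc5 had none in the table used. The 4 windows printed here run 5′ to 3′ on the strand of the gene, and capitals mark matches to an interferon-stimulated response element (ISRE) or a kappa B site. They lie at chr17:34000298-34000597 (minus strand) for H2-K1, chr17:35262844-35263143 (plus) for H2-D1, chr2:122147437-122147736 (plus) for B2m and chr13:74639603-74639902 (plus) for Erap1.
H2-K1: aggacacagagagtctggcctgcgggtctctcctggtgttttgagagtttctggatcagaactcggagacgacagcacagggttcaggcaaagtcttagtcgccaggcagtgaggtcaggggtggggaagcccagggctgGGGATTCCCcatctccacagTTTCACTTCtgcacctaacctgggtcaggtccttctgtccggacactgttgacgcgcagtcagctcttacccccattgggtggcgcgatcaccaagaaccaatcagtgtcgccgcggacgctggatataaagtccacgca
H2-D1: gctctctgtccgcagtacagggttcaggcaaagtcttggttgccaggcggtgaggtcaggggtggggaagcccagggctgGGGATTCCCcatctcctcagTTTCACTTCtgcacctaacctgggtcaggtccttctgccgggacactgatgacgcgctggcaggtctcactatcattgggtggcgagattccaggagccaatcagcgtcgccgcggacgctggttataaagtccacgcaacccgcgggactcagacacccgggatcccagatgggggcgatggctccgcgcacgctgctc
B2m: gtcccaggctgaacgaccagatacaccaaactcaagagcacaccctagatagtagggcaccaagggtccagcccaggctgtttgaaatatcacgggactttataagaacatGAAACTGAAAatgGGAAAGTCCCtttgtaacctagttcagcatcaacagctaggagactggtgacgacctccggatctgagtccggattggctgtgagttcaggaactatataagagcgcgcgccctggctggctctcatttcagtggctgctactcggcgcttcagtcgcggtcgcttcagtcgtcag
Erap1: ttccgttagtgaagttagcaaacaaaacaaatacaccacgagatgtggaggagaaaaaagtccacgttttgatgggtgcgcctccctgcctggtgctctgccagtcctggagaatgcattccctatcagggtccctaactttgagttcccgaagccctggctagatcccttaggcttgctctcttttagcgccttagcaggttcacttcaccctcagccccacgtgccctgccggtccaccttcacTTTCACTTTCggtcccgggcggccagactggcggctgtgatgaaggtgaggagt

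The windows of both classical heavy chains held the same arrangement. Each carried the palindromic kappa B letters GGGANTCCC, then the class I form of the ISRE (GAANNGAAA, on the opposite strand), then TGACGC, which is part of the X2 element, then CCAAT boxes. The kappa B match began 110 bases before the start site in H2-K1 and 170 bases before it in H2-D1, and the ISRE match began 20 bases further on in both. Over 239 aligned bases the windows were identical at 88.3%. In B2m the order was reversed, with an ISRE (GAAA, any 2 bases, GAAA) at 139 bases before the start site and an asymmetric kappa B site (GGGA, any base, TTTCC, on the opposite strand) at 126. Erap1 had an ISRE across its start site, and Psmb8 had the letters TTCNNNGAA, the gamma interferon activation site (GAS), 97 bases before it.

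All motifs were searched on both strands, and no match in the windows of the members overlapped a match of another motif. Among 32851 RefSeq windows of this length, GAANNGAAA was found in 7.52%, the longer ISRE of B2m and Erap1 in 3.44%, GGGANTCCC in 0.767%, the asymmetric kappa B site in 0.411%, TTCNNNGAA in 8.30%, TGACGC in 7.40%, CCAAT in 37.4% and the GC box GGGCGG in 35.7%. The windows of Tap1 and Psmb9, which are transcribed in opposite directions, share 275 bases and held a CCAAT and a GC box but none of the ISRE, kappa B or GAS letters. The same was true of Tapbp. The RefSeq start sites of Tapbp, H2-D1, Psmb8, Psmb9 and Erap1 lie well inside their GENCODE genes, so their windows miss the GENCODE gene start. The motifs are matches of letters, and binding was not measured.

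**Figure D1:**
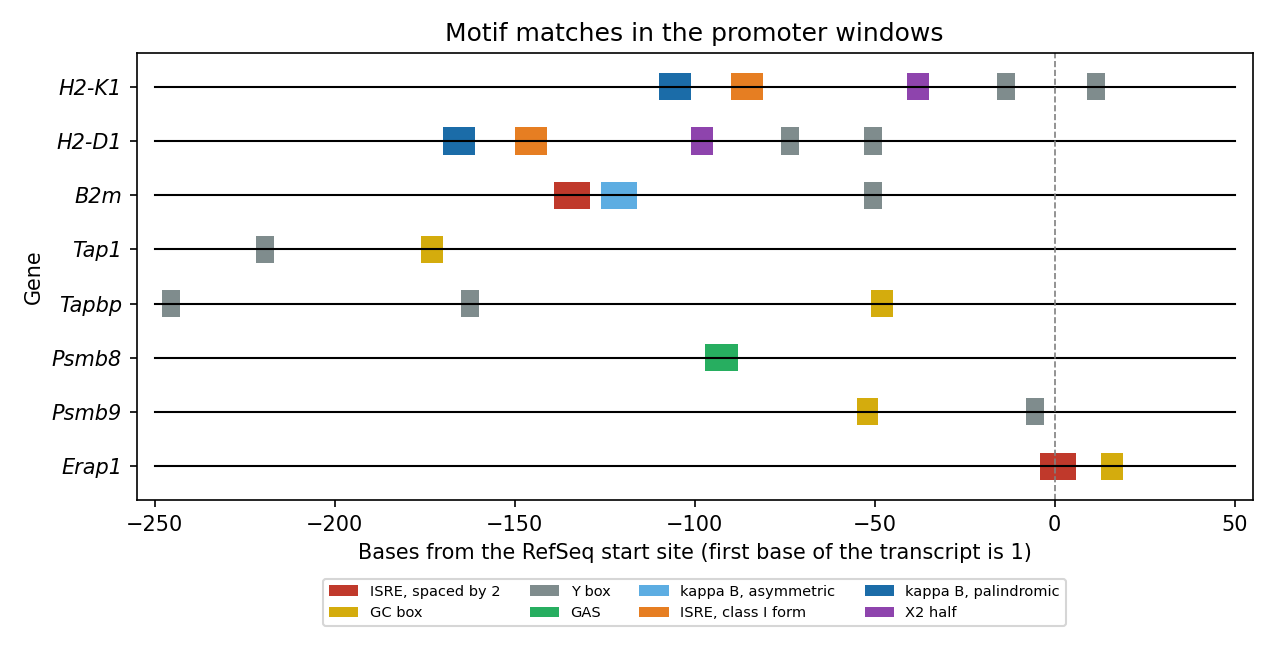
Motif matches in the RefSeq promoter windows of 8 genes, by distance in bases from the start site (dashed line); coloured blocks are motifs named in the key, matched on either strand. H2-K1 and H2-D1 show the same order of kappa B, class I ISRE, X2 (TGACGC) and Y box (CCAAT) matches, and Tap1 and Psmb9 share their window in mirror image.

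The classical heavy chains were the most abundant class I transcripts after B2m. Per kilobase of exon, B2m stood at 731 CPM in WT 1, H2-D1 at 284, H2-K1 at 128, Tapbp at 75.4, Psmb8 at 30.1, Tap2 at 15.7, Tap1 at 9.94, Erap1 at 5.62, Psmb9 at 4.28 and Nlrc5 at 2.56. The first 7 places were the same in all libraries, though Tapbp and Psmb8 were nearly equal in HET 2 and changed places there with the longest transcript as the length. Erap1, Psmb9 and Nlrc5 changed places between libraries, with Nlrc5 at 6.60 CPM per kilobase in HET 1 above Erap1 at 5.60 and Psmb9 at 5.02.

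H2-K1 (chromosome 17, 33996017 to 34000347, minus strand) encodes the heavy chain K. It stood at 376 CPM (WT 1), 445 (library labelled WT 2), 556 (HET 1) and 487 (HET 2). Both HET libraries lay above both WT libraries, with a log2 fold change of HET over WT of 0.35 ± 0.31 (SE, n = 2 libraries per genotype) that missed the threshold of 0.05 in edgeR's quasi-likelihood F test (adjusted p = 0.987). H2-D1 (chromosome 17, 35262730 to 35267499, plus strand), the heavy chain D, stood at 733, 865, 1087 and 959 CPM. Its log2 fold change was 0.36 ± 0.33, and the order of the 4 libraries was that of H2-K1. The log2 fold changes of H2-K1 and H2-D1 fell to 0.19 and 0.20 when HET 1 was left out, were 0.23 and 0.24 without WT 1, and came to 0.47 and 0.48 without the library labelled WT 2.

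The balance between H2-K1 and H2-D1 was alike in all libraries within counting error. H2-K1 took 33.9% of the counts of the pair in WT 1 (95% Wilson interval 33.1% to 34.7%) and as much, 33.9%, in the library labelled WT 2 (33.3% to 34.6%). The share was 33.9% for HET 1 (33.3% to 34.4%) and 33.7% for HET 2 (33.0% to 34.4%). Each share lay within the intervals of the other libraries, and these intervals cover counting error only. The sum of the pair was 1109, 1310, 1644 and 1446 CPM, a log2 ratio of 0.35 between genotype means, which was 0.20 with HET 1 left out and 0.48 with the library labelled WT 2 left out. An exact two-sided permutation test of the sum or of the share gave p = 0.33, the smallest that 2 libraries against 2 allow.

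Reads can be shared between class I genes and with overlapping genes, and whether the counting used strand is not stated. Of the 31-base words in GENCODE transcripts of H2-K1, 22.8% also occur in transcripts of other genes on either strand, with 11.1% of all its words found in H2-D1, and for H2-D1 the share was 26.9%. For H2-Q6 it was 51.8% and for H2-Q7 39.2%. Tapbp shared 26.9%, mostly with Gm19412, Tap2 14.3%, mostly with Gm15821, Psmb8 13.7%, mostly with Gm20496, and Erap1 11%, mostly with its neighbour Cast. Psmb9 (4.79%) and Tap1 (4.09%) overlap each other at their starts, Nlrc5 shared 0.579% and B2m 0.0%. Heavy chains are also highly variable between mouse strains, so their counts are uncertain where the tumours' haplotype differs from the reference; this was not tested. When all 21 heavy-chain rows of the table were added into 1 row before the fit, the sum stood at 1559 CPM (WT 1), 1812 (library labelled WT 2), 2420 (HET 1) and 2054 (HET 2), with a log2 fold change of 0.41 ± 0.36 (SE) and an adjusted p of 0.987 in edgeR. This value was 0.23 without HET 1 and 0.52 without the library labelled WT 2. The sum was added as an alternative after the data were seen.

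B2m (chromosome 2, 122147686 to 122153083, plus strand), the light chain shared by all class I molecules, stood at 629 CPM (WT 1), 489 (library labelled WT 2), 699 (HET 1) and 646 (HET 2). The groups did not overlap, but WT 1 and HET 2 were close, and the log2 fold change was 0.27 ± 0.32 (SE). It was 0.10 without the library labelled WT 2, 0.16 without HET 1 and 0.46 without WT 1. H2-K1 counts per B2m count, chosen after the values were seen, were 0.598, 0.910, 0.796 and 0.754. The library labelled WT 2 thus had the most heavy chain K for its B2m and WT 1 the least.

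**Figure D2:**
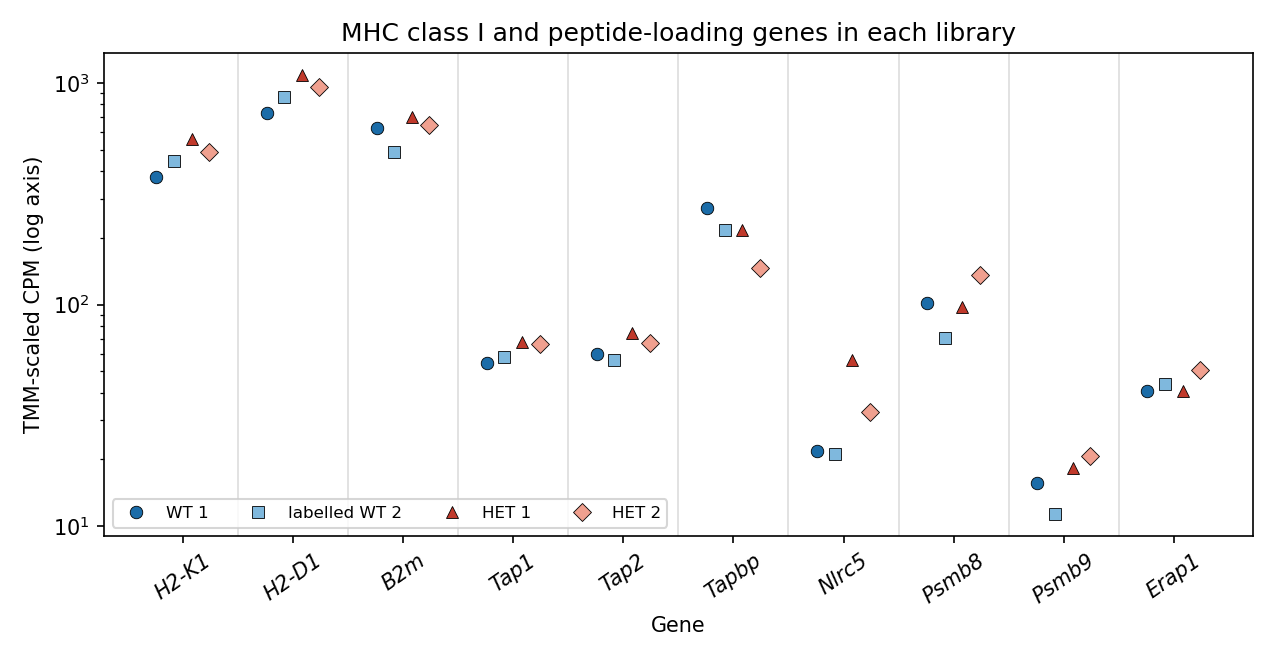
Level of each of the 10 genes in each library, as TMM-scaled CPM on a log axis; circles and squares are WT, triangles and diamonds HET. For 7 genes both HET points lie above both WT points; Psmb8 and Erap1 overlap, and Tapbp is highest in WT 1.

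Nlrc5 (chromosome 8, 94434356 to 94527272, plus strand) had the largest difference among the 10 genes. It stood at 21.7 CPM (WT 1), 21.2 (library labelled WT 2), 56.1 (HET 1) and 32.6 (HET 2). The WT libraries were nearly equal and HET 1 was well above HET 2. The log2 fold change was 1.05 ± 0.36 (SE), or 2.06-fold, and it was 1.03 without the library labelled WT 2, 0.55 without HET 1 and 1.32 without HET 2. It did not pass the edgeR test over all genes (adjusted p = 0.987; unadjusted p = 0.028), and it was the 1 of 10 members with an unadjusted p under 0.05, against 3.78% of all genes tested in either direction and 1.95% with HET higher.

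Nlrc5 acts at class I promoters with the RFX complex, and its relative Ciita does so at class II promoters. Rfx5, the DNA-binding subunit, stood at 16.9, 17.6, 24.7 and 15.2 CPM, so the genotypes overlapped. Nlrc5 counts per Rfx5 count were 1.29 (WT 1), 1.21 (library labelled WT 2), 2.27 (HET 1) and 2.14 (HET 2), a ratio chosen after the values were seen. Ciita stood at 4.85 CPM (WT 1), 0.783 (library labelled WT 2), 7.72 (HET 1) and 10.2 (HET 2). Unlike Nlrc5, Ciita thus differed strongly between the 2 WT libraries.

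Tap1 (chromosome 17, 34187553 to 34197225, plus strand) and Tap2 (34203527 to 34216321, plus strand) encode the subunits of the peptide transporter. Tap1 stood at 54.4 CPM (WT 1), 58.1 (library labelled WT 2), 68.0 (HET 1) and 66.1 (HET 2), and Tap2 at 59.5, 55.9, 74.5 and 66.9. For both genes each HET library was above each WT library, with log2 fold changes of 0.25 ± 0.27 and 0.29 ± 0.27 (SE), and of 0.30 and 0.25 without the library labelled WT 2 and 0.18 and 0.16 without HET 1. Tap1 counts per Tap2 count, chosen after the values were seen, lay between 0.913 and 1.04 in all libraries.

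Tapbp (chromosome 17, 33915899 to 33929292, plus strand) had a log2 fold change below 0. It encodes tapasin, which holds the empty heavy chain next to the transporter and edits its peptide. It stood at 274 CPM (WT 1), 216 (library labelled WT 2), 217 (HET 1) and 146 (HET 2), with the middle libraries of the 2 genotypes meeting, and the log2 fold change was -0.43 ± 0.34 (SE), with -0.23 without HET 2, -0.25 without WT 1, -0.59 without the library labelled WT 2 and -0.79 without HET 1. Tapbp counts per Tap1 count, chosen after the values were seen, were 5.03 (WT 1), 3.72 (library labelled WT 2), 3.19 (HET 1) and 2.21 (HET 2). This ratio does not depend on scaling between libraries and was lower in both HET libraries (exact two-sided permutation p = 0.33).

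Psmb8 and Psmb9 encode catalytic subunits of the immunoproteasome, which replace Psmb5 and Psmb6 of the constitutive core, as Psmb10 replaces Psmb7. Psmb8 (chromosome 17, 34197721 to 34201454, plus strand) stood at 102 CPM (WT 1), 70.7 (library labelled WT 2), 97.4 (HET 1) and 136 (HET 2). WT 1 lay above HET 1, and the log2 fold change was 0.44 ± 0.34 (SE). Psmb9 (chromosome 17, 34181987 to 34187764, minus strand) stood at 15.7, 11.3, 18.4 and 20.8 CPM, with both HET libraries higher and a log2 fold change of 0.54 ± 0.37 (SE). Without the library labelled WT 2 these values were 0.20 and 0.32, and without WT 1 they were 0.72 and 0.79. Psmb8 came to 0.12 without HET 2.

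Part of the pattern of Psmb8 was shared with the constitutive subunits. Psmb6 stood at 91.3, 54.6, 54.1 and 96.6 CPM and Psmb7 at 69.2, 49.7, 46.3 and 78.1, with WT 1 and HET 2 high and the other libraries low. Psmb5 stood at 31.5, 28.1, 27.1 and 40.3 CPM. The share of each immunosubunit in its pair, per kilobase of exon, removes what the pair has in common. Psmb8 made up 46.2% (WT 1), 40.1% (library labelled WT 2), 48.9% (HET 1) and 47.2% (HET 2), a difference in means of 4.92 percentage points that was 1.87 without the library labelled WT 2 and 7.97 without WT 1. The Wilson intervals of WT 1 (43.4% to 49.0%) and HET 2 (44.9% to 49.6%) overlapped.

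For Psmb9 the share was 8.07%, 9.60%, 14.8% and 9.91%, a difference in means of 3.52 percentage points that was 1.08 without HET 1 and 5.96 without HET 2. HET 1 stood above the others beyond counting error (interval 13.2% to 16.6%), and HET 2 did not stand apart from the library labelled WT 2 (8.22% to 11.2%). Psmb10, at 14.6, 13.7, 16 and 18.8 CPM, had shares of 29.8%, 35.6%, 41.0% and 32.6%, so the genotypes overlapped. The exact two-sided permutation p was 0.33 for the shares of Psmb8 and Psmb9 and 0.67 for Psmb10. The size of the Psmb8 and Psmb9 shares depends on the lengths taken, and the difference in means kept its sign with no length or with the longest transcript.

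Erap1 (chromosome 13, 74639568 to 74693201, plus strand) trims peptides in the endoplasmic reticulum. It stood at 40.9 CPM (WT 1), 43.9 (library labelled WT 2), 40.8 (HET 1) and 50.5 (HET 2). The genotypes overlapped, and the log2 fold change of 0.11 ± 0.29 (SE) became -0.13 without HET 2, 0.06 without WT 1, 0.16 without the library labelled WT 2 and 0.19 without HET 1.

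Read together, 9 of the 10 genes had a log2 fold change above 0, as did 11391 of the 21607 genes tested. At an adjusted p under 0.05, 0 of the 10 passed the edgeR test, as did 0.0% of all genes tested. Of the 10, 0 also passed with DESeq2 (0.62% of genes), with no filter beyond 1 count (0.752%) and without the library labelled WT 2 (0.0417%). Both HET libraries exceeded both WT libraries in 7 genes (H2-K1, H2-D1, B2m, Tap1, Tap2, Nlrc5 and Psmb9), where 19.6% of the genes tested did so, and both were lower in 0, where 15.9% were. The median log2 fold change was 0.32 for the 10 genes and 0.04 for all genes tested. Leaving out the library labelled WT 2 gave a median of 0.28, and 0.02 for all genes tested. Both HET libraries then exceeded WT 1 in 7 genes and lay below it in 1. With a single WT library the shares of all genes given above do not apply to these counts. Leaving out HET 1 gave a median of 0.19. HET 1 was the highest library for 6 genes (H2-K1, H2-D1, B2m, Tap1, Tap2 and Nlrc5), HET 2 for 3 (Psmb8, Psmb9 and Erap1) and WT 1 for Tapbp.

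**Figure D3:**
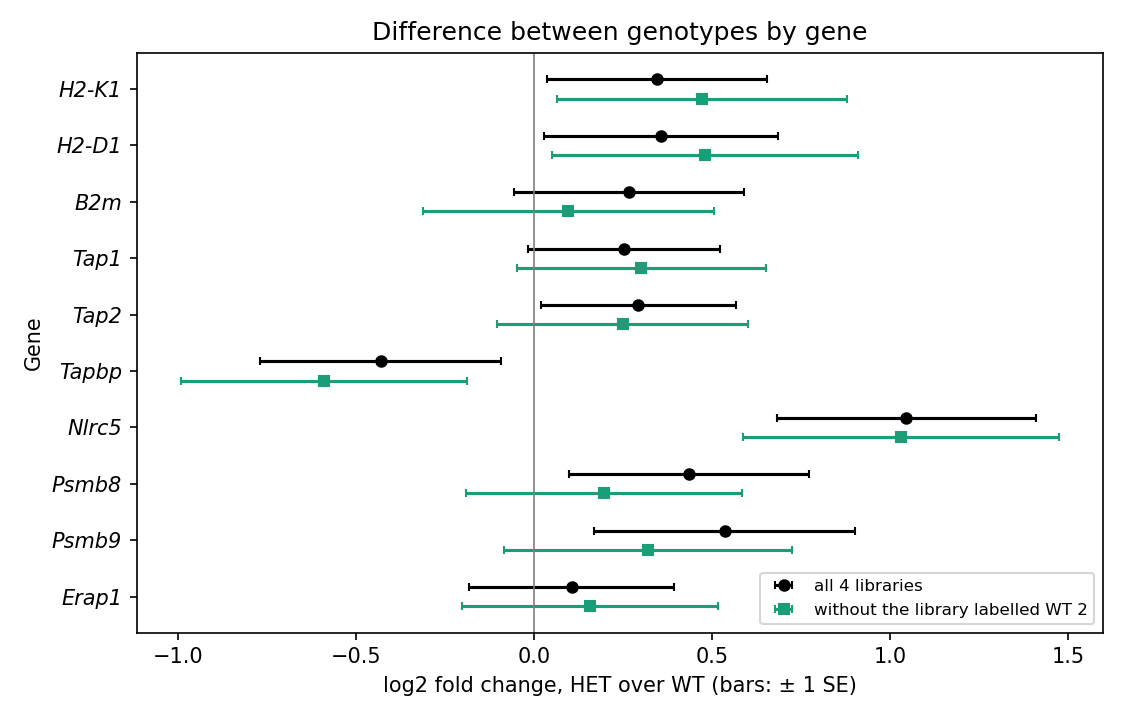
Log2 fold change of HET over WT from edgeR for each gene, with bars of 1 SE, fitted on all 4 libraries (circles) and without the library labelled WT 2 (squares). Nlrc5 stands farthest to the right at 1.05 and 1.03, B2m moves from 0.27 to 0.10, and Tapbp alone lies below 0.

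Class I genes are expressed by nearly all nucleated cells and most strongly by leukocytes, so markers of other cell types are given beside them. In bulk RNA fewer cells of a type and less RNA per cell cannot be told apart. The 12 pan-leukocyte markers summed to 392.3 CPM (WT 1), 21.7 (library labelled WT 2), 490 (HET 1) and 379 (HET 2). All 12 had a log2 fold change above 0 and 7 were higher in both HET libraries, where 19.6% of all genes tested were. The 14 macrophage and monocyte markers summed to 1159, 50.4, 1314 and 761 CPM, with 14 above 0 and 0 higher in both HET libraries. The 17 T and NK cell markers summed to 30.5, 15, 73.2 and 87.5 CPM, with 13 of 15 tested higher in both HET libraries. Nkg7, Gzma and Prf1 were at 0 counts in the library labelled WT 2, and Nkg7 also in another.

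Between the 2 WT libraries the class I genes differed in both directions. The 6 MHC class II genes summed to 417 CPM in WT 1, 608 in HET 1, 430 in HET 2 and 12.3 in the library labelled WT 2. From WT 1 to the library labelled WT 2, H2-K1 and H2-D1 were higher, Nlrc5, Tap1, Tap2 and Erap1 were close, and B2m, Tapbp, Psmb8 and Psmb9 were lower. Among the other heavy chains H2-Q6 went from 43.8 to 68.5 CPM and H2-Q1 from 64.0 to 91.8, while H2-T23 went from 31.3 to 18.7, H2-T10 from 25.0 to 17.8 and H2-Q10 from 14.8 to 7.34; H2-Q1, H2-T10 and H2-Q10 were picked after their values were seen. Pan-leukocyte sums of WT 1 and HET 2 were close (392.3 and 379 CPM). Between those 2 libraries B2m was at 629 and 646 CPM, Tap2 at 59.5 and 66.9, H2-K1 at 376 and 487, Nlrc5 at 21.7 and 32.6, and Tapbp at 274 and 146. H2-D1 was at 733 and 959 CPM, Tap1 at 54.4 and 66.1 and Psmb8 at 102 and 136. Psmb9 was at 15.7 and 20.8 CPM and Erap1 at 40.9 and 50.5. Other markers did differ between these 2 libraries. T and NK sums were 30.5 and 87.5 CPM, macrophage and monocyte sums 1159 and 761, and endothelial sums 366 and 533. B and plasma sums were 4.77 and 36.2 CPM and epithelial sums 4301 and 2606. Dendritic (50.6 and 54.2) and neutrophil sums (30.5 and 31.4) were close. The part of these cells in the class I values was not tested.

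RNA of markers of other cell types also differed between libraries, and which cells it came from was not measured. For comparison, 19.6% of all genes tested were higher and 15.9% lower in both HET libraries. The 11 fibroblast markers, which the sort does not target, summed to 6987, 22656, 4138 and 5197 CPM, with 8 of 11 lower in both HET libraries. The 9 endothelial markers summed to 366, 71.6, 309 and 533 CPM and 6 were higher in both HET libraries. Summed levels of the remaining lists were 4.77, 1.64, 8.63 and 36.2 CPM for B and plasma cells (3 of 3 tested higher in both HET libraries), 50.6, 20.8, 58.2 and 54.2 for dendritic cells (4 of 8), 30.5, 6.20, 25.5 and 31.4 for neutrophils (1 of 5) and 7.24, 2.35, 7.34 and 17.7 for erythroid cells (3 of 4). Mzb1, Cd79b, Fcmr, Cd209a, Retnlg, Camp, Cldn5, Hbb-bs and Hba-a2 were at 0 counts in the library labelled WT 2. Of the 11 epithelial markers 1 was higher and 2 were lower in both HET libraries. The neutrophil count and the lower epithelial count were near the shares of all genes. No marker in these lists passed the edgeR test, and the part of these cells in the class I values was not tested.

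**Figure D4:**
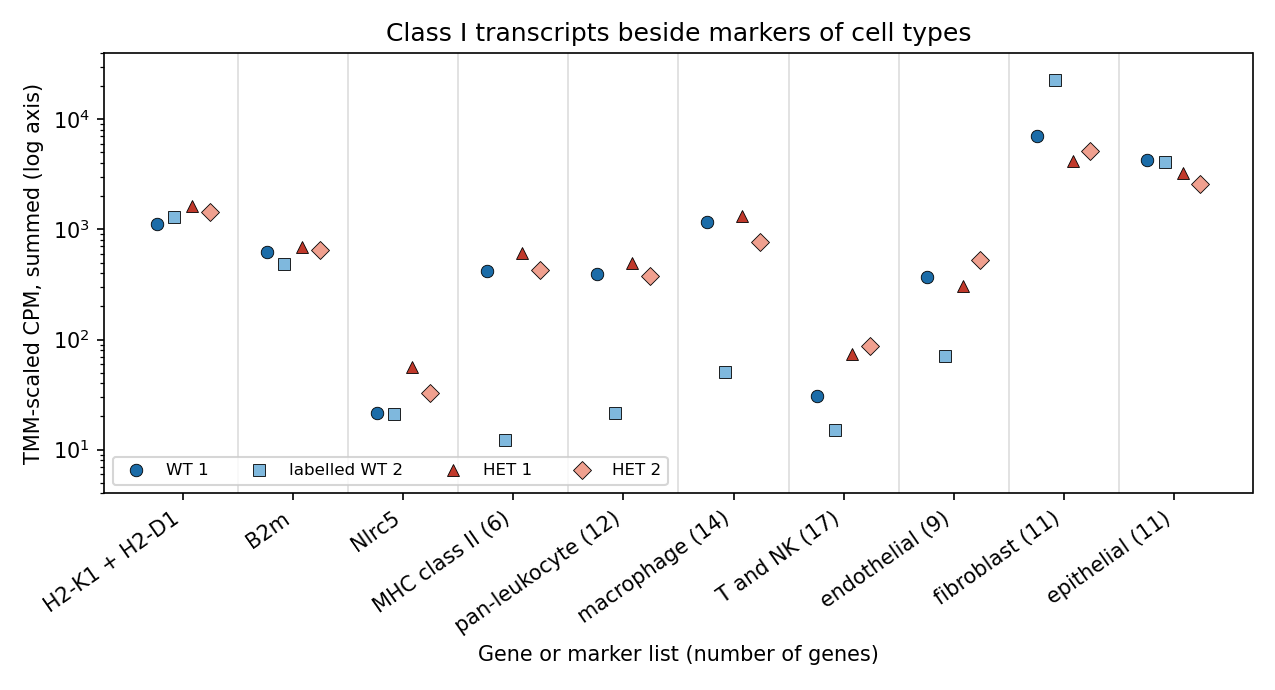
Summed TMM-scaled CPM on a log axis for H2-K1 plus H2-D1, for B2m and Nlrc5, and for marker lists with their number of genes, by library. In the library labelled WT 2, class II genes stood at 12.3 CPM, pan-leukocyte genes at 21.7, B2m at 489 and H2-K1 plus H2-D1 at 1310. B2m was lowest in that library, and H2-K1 plus H2-D1 was lowest in WT 1. Which cells the class I RNA came from was not tested.

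Beyond the classical pair, 19 of 23 listed heavy-chain genes were found and 17 passed the filter on low counts. None passed the edgeR test at an adjusted p under 0.05. An unadjusted p under 0.05 was found for 2 of the 17, H2-Q6 and H2-Q7. Among all genes tested 3.78% had such a p in either direction and 1.95% with HET higher. H2-Q6 and H2-Q7 are neighbours in the Q region, and H2-Q7 encodes a form of Qa-2. H2-Q6 stood at 43.8 CPM (WT 1), 68.5 (library labelled WT 2), 127 (HET 1) and 99.1 (HET 2) (log2 fold change 1.01, unadjusted p = 0.0259 in edgeR), and H2-Q7 at 50.9, 73.6, 122 and 98.8 (0.82, unadjusted p = 0.0425). H2-Q6 counts per H2-D1 count, chosen after the values were seen, were 0.0597, 0.0792, 0.117 and 0.103. This ratio was higher in both HET libraries (exact two-sided permutation p = 0.33). Of the 31-base words of H2-Q6, 18.4% also occur in H2-Q7, so these 2 genes are not separate observations. Their reads can also be exchanged with H2-Q4, H2-Q5 and H2-Q10, so the values of single Q genes are uncertain.

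In the list of other heavy chains, 17 of 17 tested had a log2 fold change above 0, where 11391 of 21607 genes tested did. Of the 17, 11 were higher in both HET libraries (64.7%, against 19.6% of all genes tested), and the median was 0.63. These genes are not separate observations, since they can exchange reads. For example, 47.6% of the 31-base words of H2-T10 also occur in H2-T22. Some were near the floor, with H2-T3, H2-M2, H2-M9 and H2-M11 at 6, 1, 7 and 7 counts in the library labelled WT 2. Leaving out the library labelled WT 2 gave a median of 0.42, with 16 of 17 above 0. Leaving out HET 1 left 14 of 17 above 0 and 0 with an unadjusted p under 0.05 in edgeR. H2-T23, which encodes Qa-1, the ligand of the inhibitory receptor NKG2A on NK cells, stood at 31.3, 18.7, 37.8 and 37.5 CPM. H2-M3, which presents formylated peptides, was low, at 5.97, 5.84, 6.69 and 7.87 CPM. H2-Q4 stood at 147, 157, 195 and 155 CPM, and its log2 fold change of 0.21 became -0.029 without HET 1.

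Among 12 class I-like genes tested, 10 were above 0, 3 were higher (25.0%) and 1 lower (8.33%) in both HET libraries, where all genes had 19.6% and 15.9%, and 0 passed. Hfe, a class I-like protein of iron control, stood at 4.22, 3.77, 12.1 and 7.05 CPM (log2 fold change 1.26 ± 0.50, SE; unadjusted p = 0.0456 in edgeR), and its log2 fold change was 0.77 without HET 1. Mr1, which presents vitamin B metabolites to MAIT cells, stood at 6.76, 9.97, 12.5 and 14.8 CPM. Ulbp1, a ligand of the activating receptor NKG2D, was the 1 gene lower in both HET libraries, at 27.5, 46.9, 25.5 and 24.9 CPM; it was singled out after its values were seen.

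The general chaperones and import machinery of the endoplasmic reticulum mostly lay below 0, like Tapbp. Of 13 genes tested, 11 had a log2 fold change below 0 and 5 were lower in both HET libraries (38.5%, against 15.9% of all genes), with 0 passing and a median of -0.27. With upper-quartile scaling 8 of 13 were below 0, and without the library labelled WT 2 it was 9 of 13. Pdia3, the oxidoreductase bound to tapasin, stood at 463, 524, 344 and 406 CPM, and Sec61a1, the pore of the translocon, at 130, 187, 109 and 120. Pdia6 stood at 165, 179, 129 and 134 CPM. Calr, the lectin chaperone of the loading complex, stood at 845, 1361, 1071 and 1006 CPM with overlapping genotypes, and Tapbpl, a tapasin homologue, at 19.6, 14.3, 13.7 and 14.4.

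Among 7 further genes of the immunoproteasome and its activators, 5 were above 0, 3 were higher (42.9%, against 19.6% of all genes) and 1 lower (14.3%, against 15.9%) in both HET libraries, and 0 passed. Without HET 2, 3 of 7 were above 0. The PA28 activator subunits differed in pattern: Psme1 stood at 128, 195, 233 and 205 CPM and Psme2 at 55.4, 52.2, 54.4 and 69.9. Pomp, the assembly factor of the proteasome, stood at 46.9, 55.8, 35.6 and 46.8 CPM, and Psmb11, the subunit of the thymus, at 3.71 CPM or less in every library. Of 14 constitutive core subunits 7 were above and 7 below 0, 0 were higher and 2 lower (14.3%, near the 15.9% of all genes) in both HET libraries and 0 passed, with a median of -0.03. That median ranged from -0.51 without HET 2 to 0.18 without HET 1. The 2 lower subunits were Psma3, at 81.7, 62.8, 52.1 and 57.6 CPM, and Psmb2, at 29.4, 29.7, 19.9 and 24.9.

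Among 9 cytosolic and endosomal peptidases, 2 were higher (22.2%) and 1 lower (11.1%) in both HET libraries, near the shares of all genes (19.6% and 15.9%), and 0 passed. Blmh, bleomycin hydrolase, stood at 21.2, 32.6, 33.6 and 35.8 CPM and Nln, neurolysin, at 32.5, 36.0, 23.3 and 30.6. Lnpep, the endosomal relative of Erap1, stood at 56.1, 116, 73.4 and 49.8 CPM, highest in the library labelled WT 2.

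Of 23 transcription factors that act on class I genes, 5 were higher (21.7%, near the 19.6% of all genes) and 6 lower (26.1%, against 15.9%) in both HET libraries, 11 had a log2 fold change above 0 and 0 passed. Irf1, the main interferon gamma induced activator of class I genes, stood at 73.7, 68.4, 72.4 and 84.2 CPM with overlapping genotypes (0.14 ± 0.28, SE). Irf9, a DNA-binding factor of the interferon response, stood at 39.7, 39.7, 56.7 and 53.3 CPM, with both HET libraries higher. Nfya, a subunit of the factor that binds CCAAT boxes, stood at 94.3, 83.6, 68.4 and 59.8 CPM, with both HET libraries lower.

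Irf8, abundant in myeloid and B cells, stood at 18.1 CPM (WT 1), 1.57 (library labelled WT 2), 23.6 (HET 1) and 25.3 (HET 2), lowest in the library where the leukocyte markers were lowest. Its log2 fold change was 1.32, and 0.44 with the library labelled WT 2 left out. Irf8 and Ciita passed the edgeR test only in the fit without WT 1 (log2 fold changes 3.96 and 3.50, adjusted p = 0.0115 and 0.0363), where 3.04% of genes passed and the library labelled WT 2 was the single WT library. Among 11 genes of repression and turnover of class I, 0 were higher and 2 lower (18.2%, near the 15.9% of all genes) in both HET libraries, and 0 passed. The lower genes were Ezh2, the methyltransferase of the Polycomb complex that silences class I genes in some tumours, at 135, 167, 125 and 98.2 CPM, and Hdac2, a histone deacetylase, at 78.2, 82.2, 52.6 and 65.3.

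**Figure D5:**
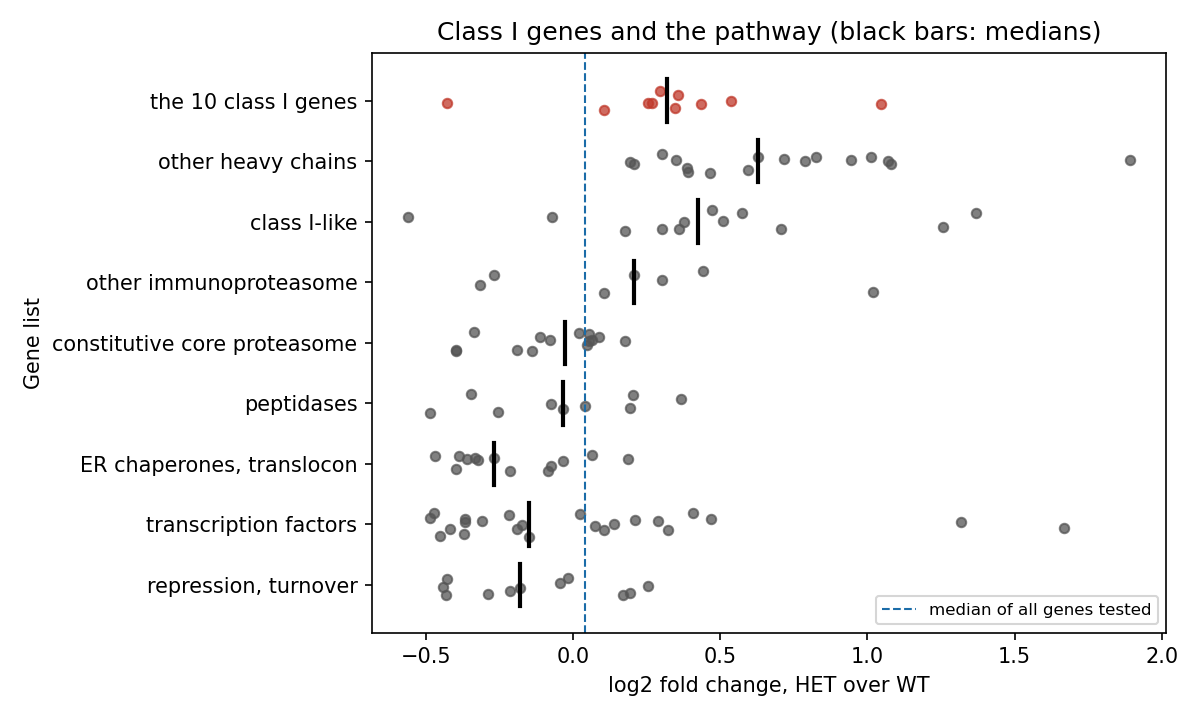
Log2 fold change of HET over WT for each tested gene of the 10 class I genes and of 8 lists of the pathway; each point is 1 gene, black bars are list medians and the dashed line is the median of all genes tested (0.04). The median is 0.32 for the 10 genes, 0.63 for other heavy chains and -0.27 for the chaperones and translocon of the endoplasmic reticulum (ER).

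The genes whose profile over the 4 libraries was nearest to the mean profile of the 10 genes were Plekhm3, Sik1, Atrx, Hectd3 and Dtx3l. Likeness was the root mean square difference of centred log2 CPM among 9920 other protein-coding genes whose log2 CPM averaged 3 or more, and it was 0.016 to 0.031 for these 5. Dtx3l, for example, stood at 101, 98.4, 130 and 124 CPM. For Nlrc5 alone the nearest were Tmem140, Usp18, Myzap, Rab3il1 and Hsd11b1, at 0.079 to 0.143. Usp18 stood at 17.4, 16.7, 53.4 and 27.1 CPM, with the same nearly equal WT libraries and the same gap between HET 1 and HET 2 as Nlrc5. With 4 libraries, likeness describes these samples alone.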

How the data were processed

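Per the submitters' processing notes, the authors quantified reads with Salmon on build GRCm38.p5; its version, the annotation and the strandedness are not stated in the sources used here. The deposited values are estimated counts of each gene, in whole numbers, 1 column per library. Of 51826 identifiers 51633 matched GENCODE M21, which gave symbols, coordinates and exon lengths (all exons of a gene merged). HET was compared with WT on all genes in edgeR 4.0.16 (R 4.3.3): filterByExpr, TMM scaling, quasi-likelihood F test, genotype as the only term, Benjamini-Hochberg adjustment over 21607 genes and a threshold of 0.05. The common biological coefficient of variation was 0.46. CPM are TMM-scaled. Libraries were grouped by source name and numbered in accession order. Alternatives were other scalings, filters and tools (DESeq2 1.42.0, limma-voom 3.58.1) and leaving out each library. The fit was also run on simulated data. The settings and the result of that run are not given here, so no conclusion is drawn from it.

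The members and lists were chosen with earlier results of these data known. All 10 members and 18 further genes are always named, then up to 2 per list by smallest p at an average log2 CPM of 1 or more, and 5 genes per profile by likeness. At these depths a count of 0 allows up to 3 counts, 0.196 to 0.236 CPM of total counts; intervals and floors cover counting error only. A small number of items named by these rules are not reported here.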

Additional observations from a re-analysis of the deposited data

How the results depend on the processing

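Of the 10 class I genes 0 passed the adjusted threshold under any alternative run, and their lowest adjusted p was 0.228, for Nlrc5 without WT 1. In 9 of the 10 the sign of the log2 fold change held in all 15 alternatives. Not all of these could turn a sign, since a threshold of 0.1 on the adjusted p leaves fold changes as they are. Robust edgeR, and library sizes without genes of other cell types, also gave nearly the same fold changes as the main fit. Erap1 ranged from -0.13 to 0.19 when single libraries were left out. The median of the 10 was 0.40 with upper-quartile scaling, 0.23 with no filter beyond 1 count and 0.50 with total counts alone, a scaling added after seeing the data, and 0.19 to 0.29 without single libraries. Total counts alone moved the median of all genes tested by 0.18, and relative to that median the 10 genes stood at 0.28 both there and with TMM, but at 0.12 with no filter beyond 1 count and 0.16 without WT 1. In the main fit Tapbp was near a tie, at 216 CPM in the library labelled WT 2 and 217 in HET 1. Tapbp was lower in both HET libraries with relative log expression scaling, no filter beyond 1 count, protein-coding genes alone and DESeq2. Without any filter 5 genes were higher in both HET libraries instead of 7, since H2-K1 and H2-D1 then overlapped. With upper-quartile scaling or total counts alone 9 were. The median of all genes tested was 0.12 and 0.22 under those scalings, against 0.04 with TMM. The share of all genes under these settings is not given here, so these counts cannot be set against the 19.6% found with TMM. Of the pathway genes 0 passed with all libraries and 0 to 2 without single libraries. Without single libraries the difference between genotypes was 1.87 to 7.97 percentage points for the Psmb8 share, 1.08 to 5.96 for Psmb9 and -0.043 to 8.29 for Psmb10. Signs also turned for Psmb6 (-0.018) and Psmb7 (-0.0077) with no filter beyond 1 count, and for Calr with upper-quartile scaling (0.0007) and total counts alone (0.10). Without single libraries the ranges were -0.029 to 0.30 for H2-Q4, -0.049 to 0.33 for Psme2, -0.20 to 0.39 for Psmb5, -0.48 to 0.47 for Psmb6, -0.42 to 0.35 for Psmb7, -0.39 to 0.30 for Calr, -0.92 to 0.14 for Lnpep, -0.037 to 0.19 for Irf1 and -0.24 to 0.45 for Rfx5. The cause was not tested. Where a genotype keeps 1 library, its spread is taken from the other genotype. DESeq2 called 134 genes (0.62%) and edgeR without a filter 324, against 0 in edgeR as reported, and 0 of the 10 were among them. With 2 libraries per genotype, differences of the size seen in most of the 10 genes could not be told from the spread between libraries. No paired analysis was possible because no replicate number in the labels pairs a WT with a HET library.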
